A study of Homo sapiens with 12 samples.

Results

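The genes described here are 43 members of the NF-kB system in breast cancer cells. They are the NF-kB factors, regulators of the signalling or TNF-induced proteins, and cytokines, chemokines and effectors, many of them known NF-kB targets. They were chosen by gene symbol, with earlier results of these data known but by a rule that uses no measured value, from the 26475 symbols counted in each of 12 RNA sequencing libraries. By role they were 7 transcription factors, 9 regulators of signalling, 12 cytokines, 11 chemokines and 4 effectors. The cells were SUM159 (SUM159PT), a human triple-negative, mesenchymal-like breast cancer line, injected into female NOD scid gamma mice aged 8 weeks, a host without T, B and NK cells that keeps myeloid and stromal cells. The mice were kept on repeated fasting-mimicking diet (FMD), given on 4 days in a row of each week, or on a standard diet (CTR). Tumour cells stained with antibodies to human CD24 and CD44 were sorted into cells with much CD24 (HI) and CD44+ cells with little CD24 (LO). This gave FMD_HI, FMD_LO, CTR_HI and CTR_LO, with 3 libraries each, all from the same line grown in the same kind of host.

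NF-kB factors are dimers of the proteins made from RELA, RELB, REL, NFKB1 and NFKB2. In resting cells inhibitors such as the product of NFKBIA keep them in the cytoplasm, and signals from TNF or IL-1 receptors destroy the inhibitors and let the dimers bind DNA at kB sites. Many of the genes they activate encode secreted signals that start the pathway again in the same or neighbouring cells, and others encode its inhibitors, so that the pathway limits itself. Several triple-negative breast cancer lines are known to run this circuit without an outside stimulus and to secrete much CXCL8 and other chemokines that draw neutrophils.

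Promoter windows of RefSeq (GRCh38.p14, 250 bases before to 50 after a gene's start) were at hand for 35 of the 43 genes, in 52 windows. A kB site was searched on both strands by the kB consensus, and by the shorter motif GGAATTTCC, which overlaps many matches of the consensus. Of the 52 windows, 40.4% held the consensus, against 11.3% of all 35116 windows of the table. The motif GGAATTTCC was in 23.1% of the 52 and in 0.461% of all windows. A match is a description of letters, not a site shown to be used, and many members were chosen as known NF-kB targets. The 150 bases upstream of the start are printed for 5 members that hold a match: the chemokines CXCL8, CXCL2 and CXCL3, the inhibitor NFKBIA and the adhesion molecule VCAM1. Each runs 5′ to 3′ along the gene's own strand up to its start, with the match in capitals. The windows are chr4:73740419-73740568 (plus strand) for CXCL8, chr4:74099196-74099345 (minus strand) for CXCL2, chr4:74038690-74038839 (minus strand) for CXCL3, chr14:35404750-35404899 (minus strand) for NFKBIA and chr1:100719592-100719741 (plus strand) for VCAM1.
CXCL8: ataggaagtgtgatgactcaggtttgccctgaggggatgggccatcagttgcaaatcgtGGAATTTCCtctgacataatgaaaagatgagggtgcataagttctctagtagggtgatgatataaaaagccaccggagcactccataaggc
CXCL2: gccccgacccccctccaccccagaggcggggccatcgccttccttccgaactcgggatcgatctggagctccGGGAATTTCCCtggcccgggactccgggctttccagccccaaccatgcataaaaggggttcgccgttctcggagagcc
CXCL3: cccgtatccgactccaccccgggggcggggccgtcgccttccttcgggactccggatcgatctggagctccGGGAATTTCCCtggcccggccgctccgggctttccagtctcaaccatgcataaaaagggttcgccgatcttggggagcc
NFKBIA: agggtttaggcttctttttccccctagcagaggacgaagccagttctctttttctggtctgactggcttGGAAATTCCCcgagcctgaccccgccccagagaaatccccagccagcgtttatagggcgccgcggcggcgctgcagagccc
VCAM1: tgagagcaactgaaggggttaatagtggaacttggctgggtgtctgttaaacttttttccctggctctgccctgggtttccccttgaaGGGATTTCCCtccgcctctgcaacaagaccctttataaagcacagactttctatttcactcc

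The match began 91 bases before the start in CXCL8, 78 in CXCL2, 79 in CXCL3, 81 in NFKBIA and 62 in VCAM1. CXCL2 and CXCL3 carried the same 11 letters at nearly the same distance, as did CXCL1. Over the 150 bases, set side by side without gaps, CXCL1 and CXCL3 had 86% equal bases, CXCL1 and CXCL2 63.3% and CXCL2 and CXCL3 58.7%. The match began at 78 bases in CXCL2 and at 79 in CXCL1 and CXCL3. Bases before the match were thus compared out of step for CXCL2, and its percentages understate the likeness. These 3 chemokine genes are near copies of each other in a cluster on chromosome 4 that also holds CXCL8, CXCL5 and CXCL6. How reads shared between them were counted is not given in the sources used here, so their separate values carry that uncertainty. No match lay in the windows of TNF, IL1A, TNFAIP2 or IL33, each of which passed a comparison below. The windows at hand did not include IL18 or RELB, which also passed a comparison. CXCL8 and NFKBIA, whose windows are printed, passed no comparison in the fit without replicate blocks.

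Counted reads ran from 17736610 to 47587142 per library. The FMD_LO libraries were the smallest, at 17736610, 18228815 and 18579816, and no other library had fewer than 29049144. FMD_LO also stood apart in the first principal component of all genes tested, which held 57.4% of the variance: its libraries lay at -79.5 to -88.9, CTR_LO replicate 2 at -2.35 and the other 8 between 24.3 and 46.1. The 11 markers listed for the line, VIM included, summed to 6553 to 8104 CPM in FMD_LO and 6081 to 6986 CPM in CTR_LO. The sums were 6007 to 7864 CPM in FMD_HI and 6211 to 7386 CPM in CTR_HI, with overlap between the groups. VIM alone had 5774 ± 625 CPM in FMD_LO and 4818 ± 458 in CTR_LO, while ESR1, PGR and EPCAM stayed under 0.6 CPM in every group mean. CD24 RNA did not follow the sort, with 2.11 ± 1.01 CPM in FMD_HI against 1.59 ± 0.48 in FMD_LO and 1.90 ± 0.83 in CTR_HI against 2.15 ± 0.77 in CTR_LO (SD, n = 3 each). Sums of macrophage, fibroblast and endothelial markers were higher in FMD_LO than in CTR_LO, and marker values are given beside the results below.

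Values below are CPM, counts relative to the library total after scaling between libraries, given per library or as mean ± SD with n = 3. Levels of different genes were compared per kb of exon, over the union of a gene's annotated exons. By this measure the 41 members with enough reads to be tested spanned nearly 3 orders of magnitude. CXCL8, the neutrophil attractant also called interleukin 8, led with 1699 CPM per kb over all libraries, then CXCL2 with 1448, NFKBIA with 942 and CXCL3 with 365. TNFAIP3, the ubiquitin editor A20 that shuts the pathway off, had 299.8 CPM per kb, the adhesion molecule ICAM1 219 and IL1A 192. At the low end stood VCAM1 with 4.93 CPM per kb, CCL2, which draws monocytes, with 1.91 and CXCL10, an interferon-induced chemokine, with 1.77. In FMD_LO the 3 highest genes were level, with CXCL8 at 1080 ± 217, NFKBIA at 1077 ± 61 and CXCL2 at 1059 ± 116 CPM per kb. In CTR_LO CXCL8 had 1927 ± 720, CXCL2 1636 ± 266 and NFKBIA 889.7 ± 88 CPM per kb. CXCL5 and CXCL6 had no more than 4 and 3 reads in any library and were not tested, although their promoter windows hold the same 11 letters as CXCL2.

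**Figure D1:**
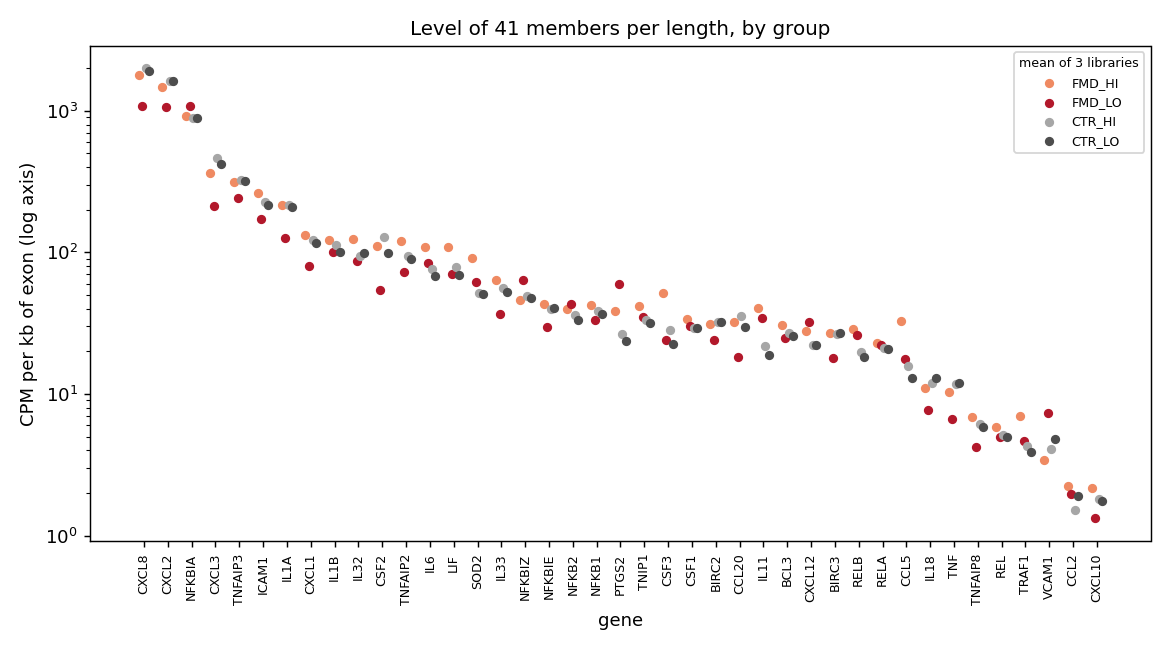
Mean level of the 41 tested members in CPM per kb of exon (log axis), 3 libraries a group, ordered by the mean over all libraries. CXCL8, CXCL2 and NFKBIA lead and CCL2 and CXCL10 are lowest, and the FMD_LO points of CXCL8, CXCL2, CXCL3 and IL1A lie below the other 3 groups.

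The median range over the libraries differed between roles, but single members overlapped, and no value over all genes was set beside it. The highest library was 3.48 times the lowest for the factor REL and 2.22 times for the chemokine CXCL2. The ratio of the highest to the lowest library had a median of 1.87 over the 7 factors and 2.25 over the 9 regulators, against 2.86 over the 12 cytokines, 3.60 over the 9 tested chemokines and 3.73 over the 4 effectors. The steadiest were CSF1, the macrophage growth factor, at 1.37, RELA at 1.38 and NFKBIA at 1.53. The widest were CSF3, the granulocyte growth factor G-CSF, at 36.9, CCL5 at 9.70, PTGS2, the prostaglandin synthase COX-2, at 9.02 and IL11 at 7.31. Replicates of a group also differed. CTR_HI replicate 2 was the highest of its group in 24 of the 41 tested members, against 32% of all genes tested, and CTR_LO replicate 2 in 21, against 37.6%. Under the fasting-mimicking diet FMD_LO replicate 3 was the highest of its group in 6 of the 41, against 38.3% of all genes.

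Diet was compared first in CD24-low cells. In the FMD_LO libraries 3 cytokines and 2 chemokines fell and 1 factor rose relative to CTR_LO, while the level of the factors RELA, NFKB1 and REL did not pass the test. The 6 members called are 6 of 41, at an adjusted p below 0.05 (edgeR quasi-likelihood test, Benjamini-Hochberg over 15461 genes). Over all genes tested 16.4% were called, 12% higher and 4.33% lower. In total the share of members called was near that background. By direction it was not, with 1 of 41 higher and 5 of 41 lower, and this split was not tested. The median log2 fold change over the 41 was -0.04, against -0.03 over all genes tested. Another 4 members had an unadjusted p below 0.05, which makes 10 in all.

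RELB (chr19:45001464-45038192, GRCh38 as for all positions) is the partner of NFKB2 in the slower, non-canonical arm of the pathway. It had 84.9, 84.3 and 68.7 CPM in FMD_LO and 46.9, 64.4 and 56.0 CPM in CTR_LO. Every FMD_LO library lay above every CTR_LO library, with a log2 fold change of 0.51 ± 0.16 (SE) and an adjusted p of 0.0452. NFKBIZ, an atypical nuclear IkB protein that works as a co-activator, had 468, 364 and 304 CPM in FMD_LO and 339.7, 274 and 234 CPM in CTR_LO. Its groups overlapped and it did not pass (log2 fold change 0.42 ± 0.19, adjusted p = 0.142). NFKB1, the precursor of p50, had 259.7, 219 and 144 CPM in FMD_LO against 209, 222 and 254 CPM in CTR_LO, again with overlap, and REL was at 65.0 ± 30.5 against 65.3 ± 3.7 CPM. The other factors, RELA, NFKB2 and BCL3, had log2 fold changes of 0.08, 0.36 and -0.04 and did not pass.

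None of the 9 regulators passed the test between diets in CD24-low cells, and 6 of the 9 had a negative log2 fold change. NFKBIA, the gene of the main inhibitor IkB-alpha and itself an NF-kB target, had 2388, 2622 and 2655 CPM in FMD_LO and 2074, 2335 and 1924 CPM in CTR_LO. All FMD_LO libraries were above all CTR_LO libraries by a small margin, at a log2 fold change of 0.28 ± 0.14 and an adjusted p of 0.191. TNFAIP3 was lower without passing, with 1330.0, 1329 and 1004 CPM in FMD_LO and 2004, 1566 and 1256 CPM in CTR_LO (-0.40 ± 0.19, adjusted p = 0.181). NFKBIE, a second IkB inhibitor, had 77.1 ± 14.4 CPM in FMD_LO against 104.5 ± 4.2 CPM in CTR_LO (-0.44 ± 0.18, adjusted p = 0.11). BIRC3, a ubiquitin ligase of the TNF receptor complex, and TNFAIP8, a TNF-induced protein, had log2 fold changes of -0.56 ± 0.31 and -0.45 ± 0.22.

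Of the 12 cytokines 3 fell, TNF and the IL-1 family members IL1A and IL18. IL18 (chr11:112143260-112164094), made as a precursor that caspase-1 cleaves, had 19.6, 15.5 and 25.1 CPM in FMD_LO and 35.9, 32.5 and 34.6 CPM in CTR_LO. The groups did not overlap, and its log2 fold change of -0.77 ± 0.15 had the smallest adjusted p among the members (0.00403). It passed under all 19 alternatives, the 12 fits without a single library included. IL1A (chr2:112773925-112784493), the form of IL-1 that damaged or stressed cells release as an alarm signal, had 275, 331 and 195 CPM in FMD_LO and 448, 449.7 and 429 CPM in CTR_LO. Again no library overlapped, at -0.73 ± 0.20 with an adjusted p of 0.0278. TNF (chr6:31575565-31578336), the classical activator of NF-kB, had 9.26, 14.4 and 9.71 CPM in FMD_LO and 17.2, 14.2 and 28.5 CPM in CTR_LO. Its groups overlapped by 1 library, and its log2 fold change was -0.85 ± 0.26 with an adjusted p of 0.0447.

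The other 9 cytokines did not pass. IL1B, which shares its receptor with IL1A, was level, with 325, 327 and 287 CPM in FMD_LO and 202, 447 and 290.2 CPM in CTR_LO (log2 fold change 0.00 ± 0.31). CSF2, the growth factor GM-CSF, had 52.9, 33.7 and 41.8 CPM in FMD_LO against 56.7, 88.0 and 88.4 CPM in CTR_LO, without overlap, but did not pass (-0.86 ± 0.37, adjusted p = 0.145). For IL6 and IL11, ligands of the gp130 receptor family, the log2 fold changes were 0.32 ± 0.38 and 0.88 ± 0.81, with standard errors about as large as the changes. LIF and CSF1 were at 0.04 ± 0.22 and 0.04 ± 0.12. IL33, a nuclear alarmin, was at -0.52 ± 0.24, IL32 at -0.20 ± 0.16 and CSF3 at 0.11 ± 1.07.

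Among the chemokines the 2 that fell were CXCL2 and CXCL3, both ligands of the neutrophil receptor CXCR2. CXCL3 (chr4:74036589-74038689) had 528, 471 and 414 CPM in FMD_LO and 808, 1133 and 858 CPM in CTR_LO, a log2 fold change of -0.99 ± 0.25 (adjusted p = 0.0172). CXCL2 (chr4:74097040-74099195) had 1509, 1788 and 1469 CPM in FMD_LO and 2425, 2868 and 2070.0 CPM in CTR_LO, a log2 fold change of -0.63 ± 0.20 (adjusted p = 0.0471). In neither gene did an FMD_LO library reach a CTR_LO library. CXCL8 (chr4:73740569-73743716) had 2714, 2766 and 1888 CPM in FMD_LO and 2851, 6108 and 4188 CPM in CTR_LO. Its groups did not overlap either, but CTR_LO replicate 1 lay close to FMD_LO, and the log2 fold change of -0.84 ± 0.35 did not pass (adjusted p = 0.128). CXCL1, the third near copy, was at -0.55 ± 0.35 and CCL20, which draws cells with CCR6, at -0.68 ± 0.69. CXCL12, the ligand of CXCR4 that stromal cells make in quantity, had 195.4 ± 6.7 CPM in FMD_LO against 135.5 ± 25.1 CPM in CTR_LO (0.53 ± 0.26, adjusted p = 0.193).

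None of the 4 effectors passed. SOD2, the mitochondrial superoxide dismutase that protects cells from TNF, had 1288, 1101 and 981 CPM in FMD_LO and 518, 1163 and 1079 CPM in CTR_LO. ICAM1 had 793, 681 and 430.3 CPM in FMD_LO and 861, 698 and 837 CPM in CTR_LO. Both overlapped, at 0.29 ± 0.29 and -0.33 ± 0.23. PTGS2 had 417, 296 and 232 CPM in FMD_LO and 46.3, 225 and 100.3 CPM in CTR_LO: all FMD_LO libraries were higher, and its log2 fold change of 1.35 ± 0.69 did not pass (adjusted p = 0.219).

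**Figure D2:**
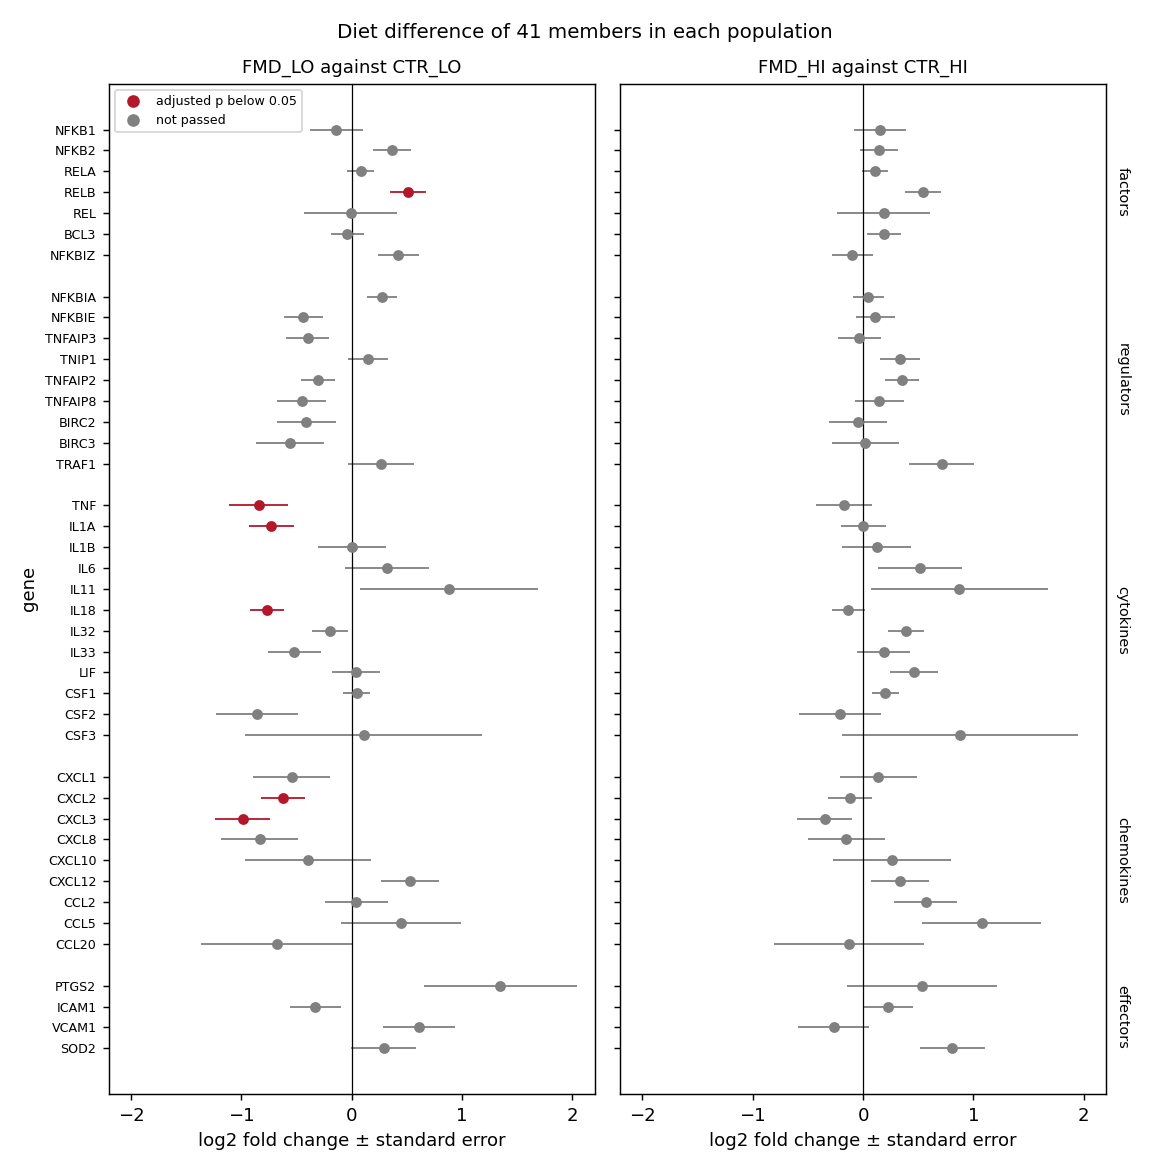
Log2 fold change between diets for the 41 tested members, with bars of ± 1 standard error from the fit over all genes, in CD24-low cells (left) and CD24-high cells (right). RELB lies above 0 and TNF, IL1A, IL18, CXCL2 and CXCL3 lie below 0 among those that passed in CD24-low cells, and no member passed in CD24-high cells.

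These calls rested on few libraries. The count of 6 became 2 without FMD_LO replicate 1 or 3 or CTR_LO replicate 1 or 3, and 3 without FMD_LO replicate 2, CTR_LO replicate 2 or any 1 of the FMD_HI libraries. Of the 12 fits without a single library, CXCL3 passed in 9, IL1A in 7, RELB in 5, TNF in 4 and CXCL2 in 2. Their log2 fold changes without a single library ran from -1.09 to -0.84 for CXCL3, -0.91 to -0.55 for IL1A, 0.39 to 0.61 for RELB, -1.08 to -0.50 for TNF and -0.73 to -0.52 for CXCL2. TNF was at -0.50 without CTR_LO replicate 3, its highest library.

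The FMD_LO libraries also held more RNA that matched markers of host cell types. The 15 macrophage and leukocyte markers summed to 171 to 197 CPM in FMD_LO and 27.1 to 42.7 CPM in CTR_LO, and 6 of the 11 tested were higher, with TYROBP and C1QA at 0 in FMD_LO. PTPRC, which encodes CD45, averaged 51.3 ± 7.8 CPM in FMD_LO and 2.94 ± 0.37 in CTR_LO, and SPI1, the myeloid factor PU.1, 43.6 ± 3.9 and 1.38 ± 0.65 CPM in the same groups. The 11 fibroblast markers summed to 46811 to 69396 CPM in FMD_LO and 19839 to 35406 CPM in CTR_LO, with 5 of 11 higher and none at 0. The 10 endothelial markers summed to 110.2 to 151 CPM against 86.7 to 97.7 CPM, with 3 of the 9 tested higher. The 10 neutrophil markers summed to 37.9 to 62.8 CPM in FMD_LO and 2.59 to 58.8 CPM in CTR_LO: 3 of the 5 tested were higher, CAMP was at 0 in FMD_LO, and S100A8, at 7.27 ± 5.13 against 9.47 ± 9.19 CPM, was not. The 6 lymphocyte markers summed to at most 0.475 CPM in any library, with CD3D and NKG7 at 0 in FMD_LO. The part of all these markers in the results on the members was not tested, nor whether their RNA came from host or tumour cells. The alignment was to the human genome, and whether reads of the mouse host had been removed is not given in the sources used here. In bulk libraries fewer cells of a type and less RNA per cell cannot be told apart.

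In CD24-high cells none of the 41 members passed between FMD_HI and CTR_HI, by edgeR or by DESeq2, and 0% of all genes tested were called by edgeR. At an unadjusted p below 0.05 there were 5 members by edgeR and 6 by DESeq2. The median log2 fold change of the members was 0.15, against -0.00 over all genes tested, with 30 of 41 above 0. The 5 members with an unadjusted p below 0.05 were RELB, TNFAIP2, TRAF1, IL32 and SOD2. RELB had 87.1, 87.5 and 87.2 CPM in FMD_HI and 49.8, 75.2 and 54.8 CPM in CTR_HI. Its libraries did not overlap and its log2 fold change of 0.54 ± 0.16 had about the size of that in CD24-low cells, but here the adjusted p was 0.515. SOD2 had 1717, 1708 and 1538 CPM in FMD_HI and 619.6, 1304 and 914 CPM in CTR_HI, at 0.81 ± 0.30 (adjusted p = 0.607). TRAF1, an adaptor of TNF receptors, was at 0.71 ± 0.29. The genes that fell in CD24-low cells had small differences here, IL1A at 0.00 ± 0.20, CXCL2 at -0.12 ± 0.20, IL18 at -0.13 ± 0.15, TNF at -0.17 ± 0.26 and CXCL3 at -0.35 ± 0.25. CXCL8 had 4305, 4484 and 3454 CPM in FMD_HI against 3425, 7322 and 2857 CPM in CTR_HI and was at -0.15 ± 0.35.

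**Figure D3:**
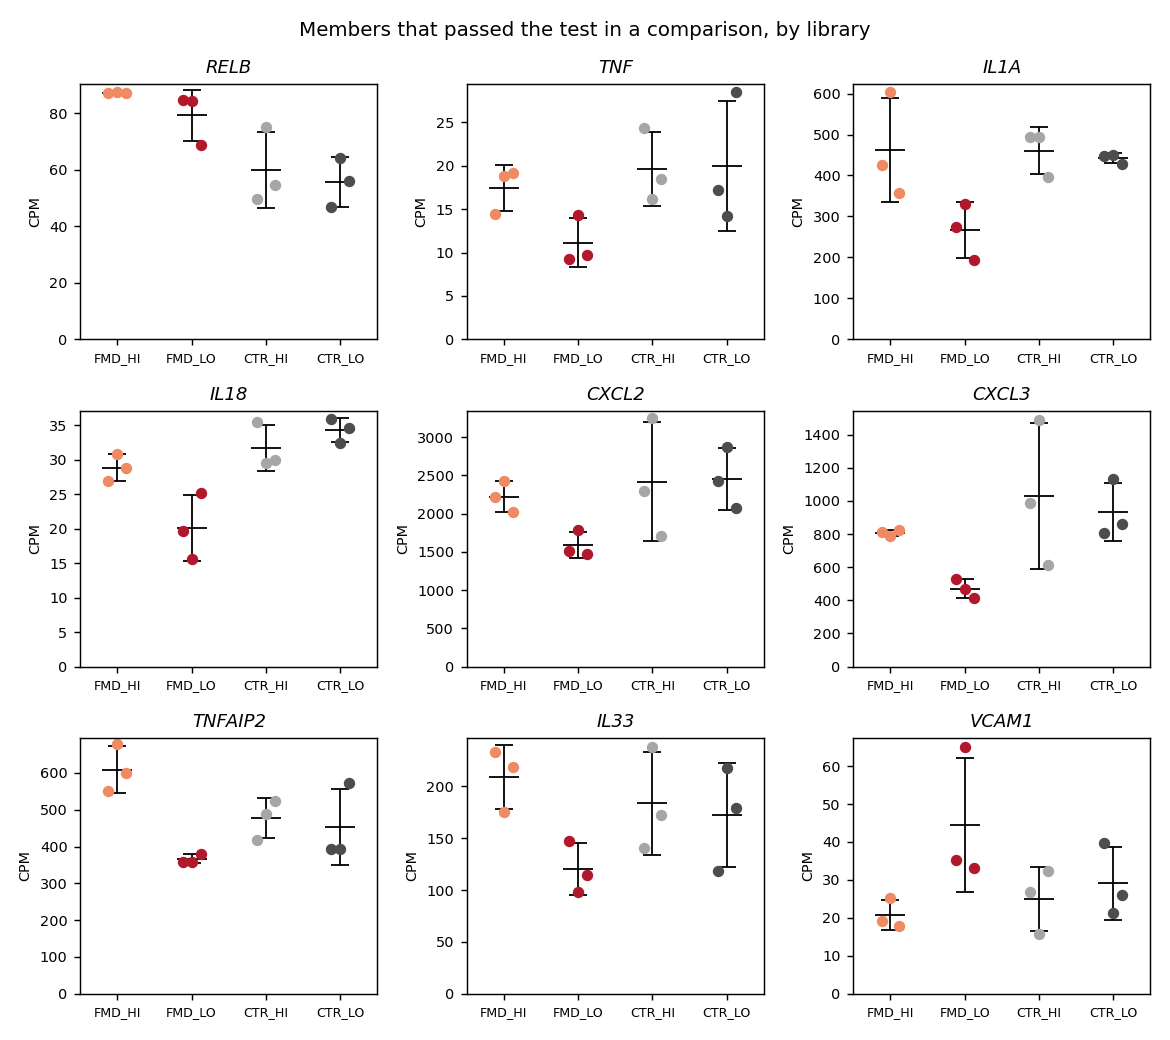
CPM of the 9 members that passed the test between diets in CD24-low cells or between populations under the fasting-mimicking diet. Each point is a library (replicates 1, 2 and 3 from left to right) and the bars show mean ± SD of 3 libraries; IL1A, IL18, CXCL2, CXCL3 and TNFAIP2 average lowest in FMD_LO, and VCAM1 averages highest there.

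Whether the diet difference itself differed between populations was tested as an interaction, the difference in CD24-low cells minus that in CD24-high cells. No member passed by edgeR or DESeq2, where 4.13% of all genes tested passed by edgeR. At an unadjusted p below 0.05 there were 5 members by edgeR and 7 by DESeq2. The estimates were negative for 34 of 41, with a median of -0.51 against -0.04 over all genes tested. IL1A had -0.73 ± 0.29 (adjusted p = 0.226), IL18 -0.64 ± 0.22 (0.142), TNFAIP2 -0.66 ± 0.22 (0.123) and CXCL3 -0.64 ± 0.35 (0.442). For RELB the interaction was -0.03 ± 0.23. With a separate block of replicate numbers for each diet, an alternative chosen after the data were seen, 11 of the 41 members passed. Over all genes tested 11% did. PTGS2 was higher and 10 of the 41 were lower, where 8.97% of all genes were higher and 2.04% lower. IL1A (-0.74 ± 0.12, adjusted p = 0.00281) and IL33 (-0.71 ± 0.12, adjusted p = 0.0036) had the smallest adjusted p. That block assumes pairs in both diets, which the sources used here do not state. Same-number libraries all correlated above 0.1 under the fasting-mimicking diet, and under the control diet all but replicate 3 did. Without that block, a diet difference particular to CD24-low cells was not shown for any member.

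The populations were then compared within each diet. Under the fasting-mimicking diet TNFAIP2, IL1A, IL18 and IL33 rose and VCAM1 fell in FMD_HI relative to FMD_LO, in a comparison that uses the same FMD_LO libraries as the diet comparison above and is not independent of it. Without regard to replicate numbers 5 members passed, 4 higher and 1 lower, where 14% of all genes tested were called, 1.84% higher and 12.2% lower. The median log2 fold change was 0.51 over the members and 0.06 over all genes tested, and 35 of 41 members were above 0, against 8801 of 15461 genes tested.

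TNFAIP2 (chr14:103121469-103137439), a TNF-induced protein related to an exocyst subunit, had 551, 679 and 599 CPM in FMD_HI and 359, 359 and 380.4 CPM in FMD_LO, a rise of 0.73 ± 0.15 on the log2 scale (adjusted p = 0.00494). The libraries lay far apart relative to their spread, and the gene passed under all 20 alternatives. IL1A had 425, 604 and 357 CPM in FMD_HI and 275, 331 and 195 CPM in FMD_LO (0.79 ± 0.20, adjusted p = 0.0186). IL33 (chr9:6215149-6257983) had 233, 175 and 219 CPM in FMD_HI and 147, 98.5 and 114 CPM in FMD_LO (0.80 ± 0.24, adjusted p = 0.0443). IL18 had 26.9, 30.8 and 28.8 CPM in FMD_HI and 19.6, 15.5 and 25.1 CPM in FMD_LO (0.52 ± 0.15, adjusted p = 0.039). None of the 3 cytokines overlapped between the groups. VCAM1 (chr1:100719742-100739045), which binds leukocytes and is made by stromal and endothelial cells as well as by some tumour cells, had 19.1, 25.2 and 17.9 CPM in FMD_HI and 35.2, 64.9 and 33.3 CPM in FMD_LO. It was the member that fell, by 1.10 ± 0.33 on the log2 scale (adjusted p = 0.0448), and without FMD_LO replicate 2, its highest library, the log2 fold change was -0.72 with an adjusted p of 0.202. Of the 12 fits without a single library IL1A passed in 10, IL18 in 8, IL33 in 6 and VCAM1 in 5. The count of 5 became 2 without FMD_HI replicate 2, 3 without FMD_LO replicate 2 or 3, CTR_LO replicate 3 or FMD_HI replicate 1, 10 without CTR_HI replicate 2 and 8 without CTR_HI replicate 3.

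Under the fasting-mimicking diet FMD_HI and FMD_LO libraries with the same replicate number deviated from their group means together, and the comparison was therefore also made within numbers. Whether such libraries came from the same tumour is not given in the sources used here. FMD_HI was above FMD_LO in all 3 same-number pairs for 32 of the 41 members, or 78.0%, against 35% of all genes tested. It was below in all 3 pairs for 4 members, VCAM1, PTGS2, NFKBIZ and NFKBIA, against 28.1% of all genes tested. The other 5, NFKB2, RELA, REL, CXCL10 and CXCL12, were mixed. With replicate number as a block across all 4 groups, 12 of the 41 members passed, all higher. Of all genes tested 15.3% passed, 2.64% higher and 12.7% lower. IL33 and VCAM1 were no longer among the members called, and the count is more than 1.5 times the 5 above. That block takes a number as shared between the diets, which the data do not show. Same-number FMD_LO and CTR_LO libraries correlated at -0.117, 0.001 and 0.082, and FMD_HI and CTR_HI libraries at -0.141, -0.060 and -0.221. With a separate block for each diet, an alternative chosen after the data were seen, 25 passed, 21 higher and 4 lower, against 27.2% of all genes tested, 10.3% higher and 16.8% lower.

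By role, the calls without a block were 0 of 7 factors, 1 of 9 regulators, 3 of 12 cytokines, 0 of 9 chemokines and 1 of 4 effectors. The block across all 4 groups gave 0, 5, 4, 2 and 1 in the same order. Of all genes tested 14% were called without a block and 15.3% with this block. The block within each diet, the alternative chosen after the data were seen, called 27.2% of all genes tested, 10.3% higher and 16.8% lower. With it 7 of the 9 regulators were higher and 1, NFKBIA, was lower. NFKBIE was at 0.52 ± 0.09 (adjusted p = 0.000996), BIRC3 at 0.58 ± 0.11 (0.00179) and TNFAIP3 at 0.38 ± 0.08 (0.0047). NFKBIA had 2013, 2217 and 2293 CPM in FMD_HI and 2388, 2622 and 2655 CPM in FMD_LO, a difference of -0.23 ± 0.08 (0.0424) that was alike in all 3 pairs, at -0.25, -0.24 and -0.21. Of the 12 cytokines 6 were higher, IL33 at 0.81 ± 0.09 (4.81e-05), IL1A at 0.79 ± 0.09 (5.64e-05), LIF at 0.66 ± 0.12 (0.00206), IL18, IL32 and TNF. Of the 9 chemokines tested 4 were higher, the CXCR2 ligands CXCL1, CXCL2, CXCL3 and CXCL8. CXCL8 was at 0.74 ± 0.15 (0.00492), with pair ratios on the log2 scale of 0.67, 0.70 and 0.87. All 4 effectors passed: SOD2 (0.57 ± 0.10) and ICAM1 (0.63 ± 0.12) were higher, PTGS2 (-0.59 ± 0.12) and VCAM1 (-1.05 ± 0.17) lower. Of the 7 factors NFKB1 (0.36 ± 0.08) and BCL3 (0.30 ± 0.10) were higher and NFKBIZ (-0.47 ± 0.12) was lower.

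**Figure D4:**
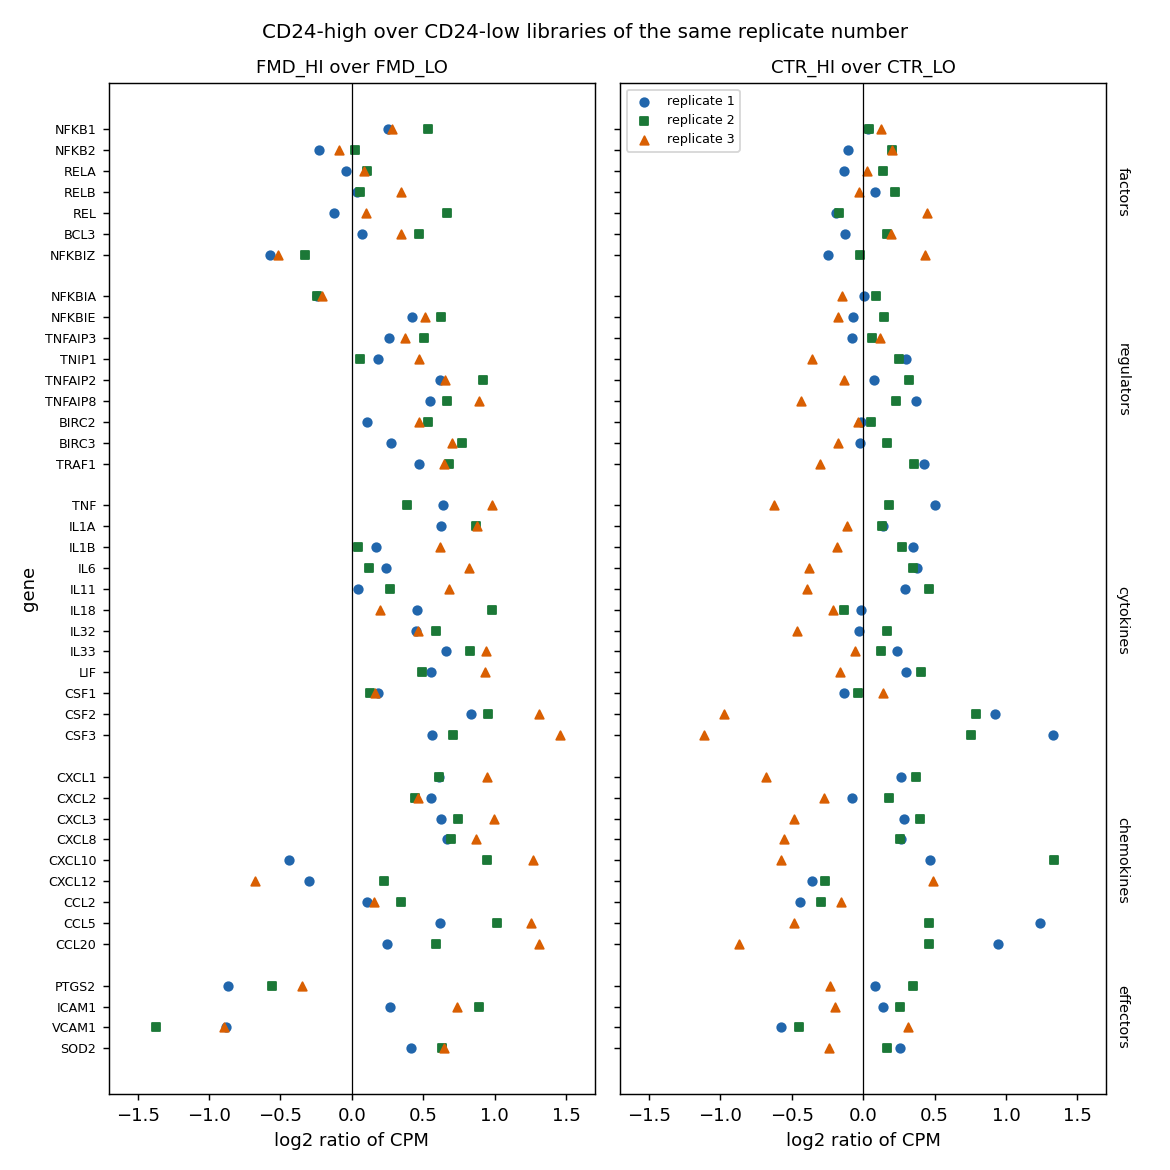
Log2 ratio of CPM in CD24-high over CD24-low libraries of the same replicate number, for the 41 tested members under the fasting-mimicking diet (left) and the control diet (right). On the left 32 genes have all 3 points above 0 and VCAM1, PTGS2, NFKBIZ and NFKBIA all 3 below. On the right replicate 3 often lies opposite to replicates 1 and 2.

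Sums of macrophage and fibroblast markers were lower in every FMD_HI library than in any FMD_LO library, while endothelial and neutrophil sums overlapped. VCAM1, PTGS2, NFKBIZ and NFKBIA were also lower in FMD_HI, and most members were higher. The macrophage and leukocyte sum was 46.4 to 65.5 CPM in FMD_HI and 171 to 197 CPM in FMD_LO, with 5 of 11 tested markers lower in FMD_HI and C1QA at 0 in both groups. The fibroblast sum was 13955 to 17702 CPM in FMD_HI and 46811 to 69396 CPM in FMD_LO, with 6 of 11 lower and none at 0. Endothelial markers summed to 80.0 to 115 CPM in FMD_HI and 110.2 to 151 CPM in FMD_LO, with 4 of 9 lower. Neutrophil markers summed to 16.0 to 56.0 CPM in FMD_HI and 37.9 to 62.8 CPM in FMD_LO, with 3 of 5 lower. The members took 1.79% to 2.07% of all counts in FMD_HI and 1.27% to 1.49% in FMD_LO. The part of the marker RNA in the differences between populations was not tested, for the members that rose or for VCAM1. Nor was it tested whether that RNA came from host or tumour cells.

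Under the control diet no member passed between CTR_HI and CTR_LO by edgeR or DESeq2, 0 members had an unadjusted p below 0.05 by either tool, and 0% of all genes tested were called. The median log2 fold change was 0.06 over the members and -0.00 over all genes tested. CTR_HI was above CTR_LO in all 3 same-number pairs for 1 member, NFKB1, against 9.11% of all genes tested, and below in all 3 for IL18 and CCL2, against 11.4%. The 3 pairs differed: CTR_HI was above CTR_LO in 25 members for number 1, in 34 for number 2 and in 10 for number 3, where all genes tested gave 47.0%, 44.6% and 52.9%. CSF3 had 15.3, 146 and 26.4 CPM in CTR_HI and 6.07, 86.7 and 57.1 CPM in CTR_LO, and CXCL8 had 3425, 7322 and 2857 CPM in CTR_HI and 2851, 6108 and 4188 CPM in CTR_LO. In both genes replicate 2 was the highest in either population, and the spread among replicates exceeded the difference between the groups. Under the fasting-mimicking diet the corresponding counts of members higher in CD24-high cells were 32, 37 and 35, where all genes tested gave 56.9%, 56.2% and 50.5%.

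Further lists give the rest of the pathway. Of 32 genes of NF-kB signalling, all tested, 2 were higher and 1 lower in FMD_LO than in CTR_LO, with a median log2 fold change of 0.01. Over all genes tested 12% were higher and 4.33% lower, so that the count in the list was not above the background. CHUK, the kinase IKK-alpha of the non-canonical arm, rose to 31.6 ± 0.9 CPM in FMD_LO, against 17.3 ± 0.3 CPM in CTR_LO (0.86 ± 0.11, adjusted p = 0.00017). TAB2, an adaptor of the kinase TAK1, rose to 116 ± 16 CPM in FMD_LO, against 71.5 ± 11.2 CPM in CTR_LO (0.70 ± 0.15, adjusted p = 0.00572). CARD10, a scaffold that links receptors to the IKK complex, fell to 22.8 ± 2.1 CPM in FMD_LO, against 35.4 ± 5.3 CPM in CTR_LO (-0.63 ± 0.13, adjusted p = 0.00512). The same 3 genes were the ones called between FMD_HI and FMD_LO, with the opposite sign, in a comparison that shares the FMD_LO libraries: CHUK at -0.79, TAB2 at -0.68 and CARD10 at 0.53.

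Of 33 receptors for the members' products and related ligands, 24 were tested, and in FMD_LO against CTR_LO 4 were higher and none lower, with a median log2 fold change of 0.20. That is 16.7% called, against 16.4% of all genes tested, 12% higher and 4.33% lower. CSF1R, the receptor of CSF1, averaged 25.2 ± 5.0 CPM in FMD_LO and 1.495 ± 0.278 CPM in CTR_LO (4.08 ± 0.31, adjusted p = 3.15e-06). CXCR2, the receptor of CXCL1, CXCL2, CXCL3 and CXCL8, averaged 10.7 ± 2.9 CPM in FMD_LO and 0.719 ± 0.368 CPM in CTR_LO (3.86 ± 0.39, adjusted p = 2.55e-05). CXCR4, the receptor of CXCL12, averaged 22.9 ± 5.6 CPM in FMD_LO and 0.786 ± 0.774 CPM in CTR_LO (4.93 ± 0.67, adjusted p = 0.000535). CSF1R also stands in the macrophage list and CXCR2 in the neutrophil list, whose sums are given above. TNFRSF1A, a receptor of TNF, and IL1R1, a receptor of IL-1, did not pass. They were at -0.24 ± 0.11 (adjusted p = 0.163) and 0.64 ± 0.35 (0.245), and which cells their RNA came from was not tested.

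Of 30 other known NF-kB targets 29 were tested, with 4 higher and 3 lower in FMD_LO than in CTR_LO and a median log2 fold change of 0.06, where 12% of all genes tested were higher and 4.33% lower. BCL2L1, the survival protein BCL-XL, averaged 211 ± 11 CPM in FMD_LO and 133 ± 11 CPM in CTR_LO (0.66 ± 0.13, adjusted p = 0.00282). PLAU, the urokinase plasminogen activator, averaged 470.1 ± 70.5 CPM in FMD_LO and 950.4 ± 157 CPM in CTR_LO (-1.02 ± 0.21, adjusted p = 0.0053). PTX3, a secreted pattern recognition protein, averaged 66.5 ± 7.5 CPM in FMD_LO and 39.8 ± 6.3 CPM in CTR_LO (0.74 ± 0.18, adjusted p = 0.0146). Between FMD_HI and FMD_LO 2 of the 29 were higher and 1 lower, and in the receptor list 0 of 24 were higher and 5 lower, against 1.84% higher and 12.2% lower over all genes tested.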

How the data were processed

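Polyadenylated RNA was sequenced with a stranded kit, per the labels' protocols. The authors deposited raw read counts per gene symbol, made with STAR on hg38, per the submitters' processing notes. Version and annotation are not given in the sources used here. Only the reverse-strand column was used as deposited. The 12 libraries were fitted together with edgeR 4.0.16 (R 4.3.3; quasi-likelihood, robust, TMM, default count filter by group, 8 residual degrees of freedom, biological coefficient of variation 0.19). This tested 15461 genes, without 11014 of low count. P-values of the 5 contrasts were adjusted by Benjamini-Hochberg over all genes tested and called below 0.05. A standard error is the absolute log2 fold change over the square root of F. CPM use TMM-scaled library sizes, exon lengths GENCODE 29 and positions and promoters RefSeq (GRCh38.p14). The fit was tested on simulated data. Whether replicates came from separate mice is not given in the sources used here, so p-values measure the spread between these samples, which may be technical.

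Members and lists were chosen with earlier results of these data known. Members called in a contrast and at least the 2 most abundant of each role are given by library, and up to 3 called genes of each other list are named. Others were added after their values were seen: CSF2, CSF3, CXCL8, PTGS2, TNFRSF1A and IL1R1 among them. Same-number FMD_HI and FMD_LO libraries correlated in their deviations from group means at 0.444, 0.285 and 0.485. All were above 0.1, the threshold used here to treat them as pairs. Under the control diet the values were 0.445, 0.522 and 0.0373, and replicate 3 alone fell below it. Such correlations over 3 libraries a group cannot establish pairs, and whether same-number libraries came from the same tumour is not given. Alternatives were either-strand counts, RLE scaling, no filter, DESeq2 1.42.0, replicate blocks, only the groups compared, equal depth, and each of the 12 libraries left out. One of these, the block within diet, was chosen after the data were seen.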

Additional observations from a re-analysis of the deposited data

How the results depend on the processing

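No member changed sign under any alternative among the 11 member results that passed. Between FMD_LO and CTR_LO the 6 called members became 2 to 7 when a single library was left out, and 4 under RLE scaling, 5 with no filter, 6 with DESeq2, 6 with reads of either strand, 4 at equal depth, 7 with only the groups compared and 9 with the replicate block; same-number libraries of the 2 diets are not paired in the data. Between FMD_HI and FMD_LO the 5 became 2 to 10 when a single library was left out, 9 with DESeq2, 11 with only the groups compared, 12 with the replicate block and 25 with the block within diet; the cause of each move was not tested. With the block within diet the interaction had 11 members in place of 0, 1 higher (PTGS2) and 10 lower, against 11% of all genes tested, and it had 0 or 1 when a single library was left out, 1 without FMD_LO replicate 3. Under the control diet the numbers are not shown to pair the samples: CTR_LO replicate 3 and CTR_HI replicate 3 correlated at 0.0373, CTR_HI replicate 3 correlated best with CTR_LO replicate 1, and the block gave 0 members, as without it. The counts between FMD_HI and CTR_HI and between CTR_HI and CTR_LO stayed at 0 under every alternative run.

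Calls of single members were lost as follows, each with the direction kept. TNF between diets was lost under RLE scaling, with no filter, with the replicate block, with only the groups compared and at equal depth (-0.87 to -0.80), CXCL2 under RLE scaling (-0.60) and RELB at equal depth (0.47). Between populations VCAM1 was lost with no filter (-1.07) and with the replicate block (-1.10), IL33 with the replicate block (0.80), and IL18 (0.52) and IL1A (0.79) with only the groups compared. The adjusted p of TNF ran from 0.0169 to 0.206 over all alternatives and that of CXCL2 from 0.00708 to 0.138. With 3 libraries a group and no block, standard errors reached 1.51 on the log2 scale in the interaction (CSF3). Between 2 groups they reached 1.08 (CSF3, FMD_HI against FMD_LO). CXCL5 and CXCL6 had too few reads in every library to be tested.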
